A study of Mus musculus with 42 samples.

Results

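The 50 genes described here encode the machinery that copies DNA in S phase and the proteins that start and supply it. They were chosen by name for their roles, with no threshold on a measured value in the rule. Earlier results of these data were known at the choice, so their counts beside shares of all genes describe and do not test. All 50 were found among the 11160 genes of the expression table. By role they are 4 origin licensing genes, 6 subunits of the MCM helicase, 6 genes of helicase activation, 5 genes of the G1/S switch, 6 DNA polymerase and primase genes, 7 genes of the sliding clamp, its loader and the single-strand binding protein, 2 of Okazaki fragment processing, 5 of nucleotide supply, 5 of chromatin behind the fork and 4 of repair and checkpoint.

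Before a cell copies its DNA, ORC, CDC6 and CDT1 load the MCM helicase onto origins in G1. Cyclin E and the kinase CDC7 then start the forks with the help of CDC45, GINS and MCM10. E2F factors switch on transcription of most of these genes at the G1/S boundary, so their transcripts are abundant in cycling cells and scarce in resting ones. Macrophages grown with M-CSF, a growth factor, are known to keep dividing to some extent in culture, and glucocorticoids are known to slow the division of several blood cell types.

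RNA was sequenced from macrophages that had been grown out of mouse bone marrow with M-CSF, detached and plated again. Cells of the genotype WT and cells labelled MS4A4A KO, named for a membrane protein of macrophages, were harvested without treatment or following 2, 8 or 24 h in vehicle or in dexamethasone at 1 µM (Dex), a steroid drug that activates the glucocorticoid receptor. The 14 groups were untreated WT, untreated KO, and vehicle and Dex at each of the 3 times in each genotype, with 3 libraries each and 42 in all. Strain, age and sex of the mice and the kind of KO allele are not stated in the labels. Separate animals or cultures are not named for the replicates, so p-values rest on a spread between libraries that may be technical.

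The libraries held 10140211 to 33528397 estimated counts (median 27998690), and no count of an S-phase gene in a library was below 13. All 9 defining macrophage markers were present in every library: Adgre1, which encodes F4/80, was at 1321 to 2299 CPM (CPM: counts scaled to library size) and Csf1r, the M-CSF receptor, at 1216 to 2951 CPM. Others ranged more widely, such as Fcgr1 at 31.0 to 330 CPM and Mertk at 72.4 to 591 CPM. In 6 of the 7 conditions every library labelled KO had less Ms4a4a than every WT library, for example 44.3 to 49.6 CPM against 81.8 to 93.5 CPM in untreated cells. The exception was 24 h of vehicle, where the library labelled KO replicate 2 reached 179 CPM within a WT range of 142 to 213 CPM. The transcript was present in every KO library, and which part of the gene was removed is not given. At 24 h some libraries lay away from the others of their treatment on the S-phase genes. WT Dex replicate 1 had a mean log2 CPM of 3.33 over the 50 genes, against 2.76 to 3.01 in the other Dex libraries. Of the vehicle libraries KO replicate 2 (4.24) and WT replicate 3 (4.32) were the lowest, against 4.53 to 4.70 in the others. Results at 24 h were therefore also computed without WT Dex replicate 1 and KO vehicle replicate 2, and without all 3.

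Because genes that move together often share promoter elements, the 250 bases before each start were searched on both strands for the E2F words TTTCCCGC, TTTCGCGC, TTTGCCGC and TTTGGCGC. RefSeq promoters (GRCm38.p6) were matched for 42 of the 50 genes by symbol. A gene with several promoter entries was counted when any of them held the word. An E2F word was present in 10 of the 42 (23.8%), against 4.04% of the 8592 genes in the table that had a promoter. Counted by promoter entry and not by gene, the share was 1.86% of 32851. Of the 7 with a single promoter entry (Cdc6, Gins3, Mcm5, Mcm6, Orc1, Pola1 and Rfc3), 3 chosen after their values were seen are shown as examples, with the matched words in capitals and the sequence written in the direction of the gene: Mcm5 (chr8:75109326-75109397, plus strand), which lay among the genes with the largest falls at 24 h, Pola1 (chrX:93632256-93632323, minus strand), and Mcm6 (chr1:128359715-128359845, minus strand), with 3 matches. Overlapping words on opposite strands are joined in 1 run of capitals.
Mcm5: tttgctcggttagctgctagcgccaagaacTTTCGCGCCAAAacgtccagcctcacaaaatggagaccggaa
Pola1: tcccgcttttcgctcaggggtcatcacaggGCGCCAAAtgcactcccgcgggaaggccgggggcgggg
Mcm6: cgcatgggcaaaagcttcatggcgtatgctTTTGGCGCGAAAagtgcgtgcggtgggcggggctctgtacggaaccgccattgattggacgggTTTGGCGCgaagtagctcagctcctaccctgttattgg

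In the same windows the CCAAT word was present in 27 of the 42 genes (64.3%, against 41.0% of the genes in the table that had a promoter). The word TTTGAA of the CHR element, known from genes of the later cell cycle, was present in 8 (19.0% against 12.6%). The palindromic consensus of the glucocorticoid response element was present in 0 of the 42, and in 1 of the 8592. The 10 genes with an E2F word had a median log2 fold change of -1.70 under Dex at 24 h and the 32 without it -1.48. A match describes the letters in this window and is not a measured binding site.

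In untreated cells the S-phase genes took up a small part of the transcriptome, 0.206% ± 0.0216 of all counts in WT and 0.227% ± 0.0109 in KO (SD, n = 3 each). Per kilobase of exon, the highest level was that of Pcna, the sliding clamp that holds polymerases on DNA (209.8 CPM per kb, chromosome 2, 132249162 to 132253314 of GRCm38, minus strand, protein-coding). Mcm6, a helicase subunit, followed at 42.5 CPM per kb, Rrm2, the small subunit of ribonucleotide reductase, at 41.8 and Slbp, which binds histone mRNA, at 35.6. The lowest was Exo1, a repair exonuclease, at 1.05 CPM per kb. The annotation holds 2 pseudogenes named after Pcna and 1 named after Tyms, so the values of these genes depend on how reads were shared between copies.

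Under Dex the share of counts was near that of vehicle at 2 h and below it at 8 and 24 h. At 2 h it was 0.226% ± 0.00185 in WT and 0.218% ± 0.0152 in KO under Dex, against 0.219% ± 0.00938 and 0.241% ± 0.0205 under vehicle (SD, n = 3 each). At 8 h it was 0.150% ± 0.00513 and 0.146% ± 0.00888 under Dex, against 0.184% ± 0.0112 and 0.191% ± 0.00721 under vehicle. At 24 h the Dex libraries held 0.0764% ± 0.00760 and 0.0760% ± 0.00234, against 0.193% ± 0.0234 and 0.181% ± 0.0204. No Dex library overlapped a vehicle library in this share at 8 or at 24 h. In bulk RNA, fewer cycling cells and less of these transcripts per cell cannot be told apart, here or in any result that follows.

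**Figure D1:**
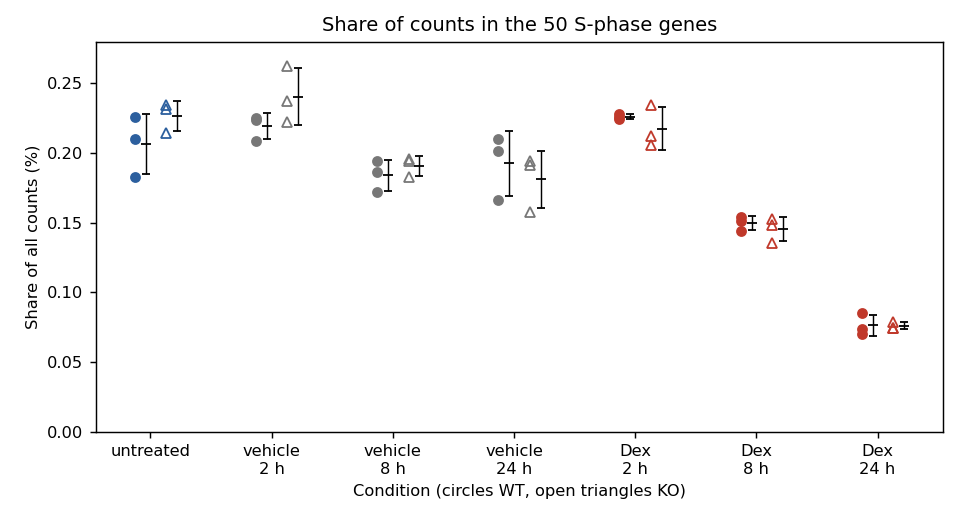
Share of all counts in the 50 S-phase genes (y axis, %) by condition (x axis), with a point for each library, filled circles for WT and open triangles for KO. Black bars are the mean ± SD of 3 libraries; the Dex 24 h libraries lie between 0.0704 and 0.0850%, below every other library.

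At 2 h of Dex a single gene of the 50 was lower and 0 were higher, where 6.41% of all genes were called lower and 8.14% higher (edgeR quasi-likelihood, adjusted p under 0.05). The gene was Cdt1, the licensing factor that brings MCM to origins. It stood at 25.8, 33.96 and 29.0 CPM in untreated WT and 27.7, 34.8 and 34.3 CPM in untreated KO libraries. After 2 h of vehicle it stood at 48.8, 47.7 and 57.8 CPM in WT and 51.6, 54.4 and 63.5 CPM in KO. After 2 h of Dex the levels were 37.4, 36.6 and 48.9 CPM in WT and 32.5, 29.7 and 40.8 CPM in KO. The vehicle libraries were all above the untreated ones, and the Dex libraries lay between or within the range of both, with the highest Dex library above the lowest vehicle library. The Dex effect on Cdt1 was -0.52 ± 0.08 on the log2 scale (SE; adjusted p = 1.25e-05, edgeR quasi-likelihood with Benjamini-Hochberg adjustment, 6 libraries a side). The median log2 fold change of the 50 genes at 2 h was 0.01, and that of all genes -0.00. With the replicate number as a block, or without WT vehicle 2 h replicate 1, E2f2 was called as well and the count was 2. Within WT alone 0 of the 50 were called at 2 h, and within KO alone 2 were lower and 0 higher. Of all 11160 genes 354 were called lower in WT and 517 in KO. The Dex effect in KO minus that in WT was called for 0 genes at 2 h.

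At 8 h of Dex 17 of the 50 genes were lower and 3 higher, against 24.7 and 27.5% of all genes, with a median of -0.11 over the 50 and 0.01 over all genes. By role, the genes called lower were 5 of the 6 MCM genes, 3 of the 4 licensing genes, 3 of the 7 clamp, loader and single-strand binding genes, 2 of the 6 helicase activation genes, 2 of the 5 chromatin genes, 1 of the 2 Okazaki fragment genes and 1 of the 5 G1/S genes. No polymerase, primase or nucleotide supply gene was called in either direction. Differences between roles were not tested. All 6 Dex libraries lay below all 6 vehicle libraries for 14 of the genes (16.9% of all genes did so), and above them for 2 (20.3% of all genes).

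The largest fall at 8 h was that of Pcna. It stood at 285, 274 and 235 CPM in WT and 292, 265 and 272 CPM in KO under vehicle. Under Dex it was at 138, 119 and 124 CPM in WT and 113, 121 and 131 CPM in KO. The lowest vehicle library was well above the highest Dex library. The log2 fold change was -1.12 ± 0.10 (adjusted p = 1.85e-11, edgeR quasi-likelihood with Benjamini-Hochberg adjustment), and Pcna was the 1 gene of the 50 that fell more than 2-fold by this time.

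Mcm2, which carries a histone-binding tail in the helicase, fell by 0.91 ± 0.09 on the log2 scale (adjusted p = 5.67e-10, edgeR quasi-likelihood with Benjamini-Hochberg adjustment). Its vehicle libraries were at 41.0, 31.8 and 30.5 CPM in WT and 34.7, 36.1 and 29.9 CPM in KO, and its Dex libraries at 20.6, 18.6 and 16.9 CPM and 15.6, 17.2 and 19.9 CPM. Again the groups did not overlap. The other MCM genes lower at 8 h were Mcm6 (-0.58 ± 0.06), Mcm3 (-0.53 ± 0.07), Mcm5 (-0.50 ± 0.12) and Mcm4 (-0.21 ± 0.07), while Mcm7 was at 0.10 ± 0.08 and was not called.

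Among the licensing genes, Cdt1 was lower by 8 h of Dex (-0.71 ± 0.09), as were Orc1, the ATPase subunit of the origin recognition complex (-0.63 ± 0.16), and Cdc6, the MCM loader (-0.32 ± 0.13). Orc6 was at 0.02 ± 0.10 and was not called. Behind the fork, Dnmt1, which copies DNA methylation to the new strand, fell by 0.92 ± 0.12 (adjusted p = 9.35e-08, edgeR quasi-likelihood with Benjamini-Hochberg adjustment), and Uhrf1, which guides it there, by 0.52 ± 0.15. Dnmt1 stood at 123, 130.3 and 152 CPM in WT and 124, 141 and 145 CPM in KO under vehicle, and at 65.4, 67.9 and 72.8 CPM and 68.4, 75.2 and 82.1 CPM under Dex, with no overlap. Rfc2 of the clamp loader (-0.33 ± 0.05), Fen1, the flap nuclease (-0.33 ± 0.05), Rpa1 (-0.22 ± 0.06) and E2f1 (-0.17 ± 0.04) were lower by smaller amounts.

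The 3 genes higher at 8 h were Brca1 of homologous recombination (0.41 ± 0.13; adjusted p = 0.00698), Ccne2, a cyclin E (0.36 ± 0.13; adjusted p = 0.0238), and Gins3 of the GINS complex (0.34 ± 0.08; adjusted p = 0.000347), all by edgeR quasi-likelihood with Benjamini-Hochberg adjustment. Brca1 was at 18.02, 18.1 and 18.5 CPM in WT and 19.5, 18.1 and 18.3 CPM in KO under vehicle. Under Dex it was at 28.9, 26.1 and 20.8 CPM and 22.7, 23.9 and 24.7 CPM, so the groups did not overlap. Ccne2 did overlap: its vehicle libraries were at 36.8, 29.0 and 24.5 CPM and 34.9, 32.7 and 30 CPM, and its Dex libraries at 45.4, 38.3 and 39.6 CPM and 36.0, 40.5 and 41.7 CPM. The calls of 5 genes at 8 h were lost when single libraries were left out. The genes were Mcm10 in 5 of 12 such fits, Ccne2 and Cdc6 in 4 each, and Gins1 and Mcm4 in 2 each; the libraries were WT vehicle replicates 1, 2 and 3, KO vehicle replicates 1, 2 and 3, WT Dex replicates 1 and 3, and KO Dex replicates 1 and 2.

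By 24 h of Dex all 50 genes were lower, where 26.8% of all genes were called lower, and 35 of them fell more than 2-fold and 15 more than 4-fold. The median log2 fold change of the 50 was -1.48, against 0.01 over all genes. The 50 were chosen with earlier results of these data known, so this contrast is a description. For 49 of them every Dex library lay below every vehicle library (14.8% of all genes did so); the exception, Gins3, overlapped in 1 vehicle library. The count was also 50 in each of the 12 fits without 1 library, without WT Dex replicate 1 and KO vehicle replicate 2, and without these and WT vehicle replicate 3.

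**Figure D2:**
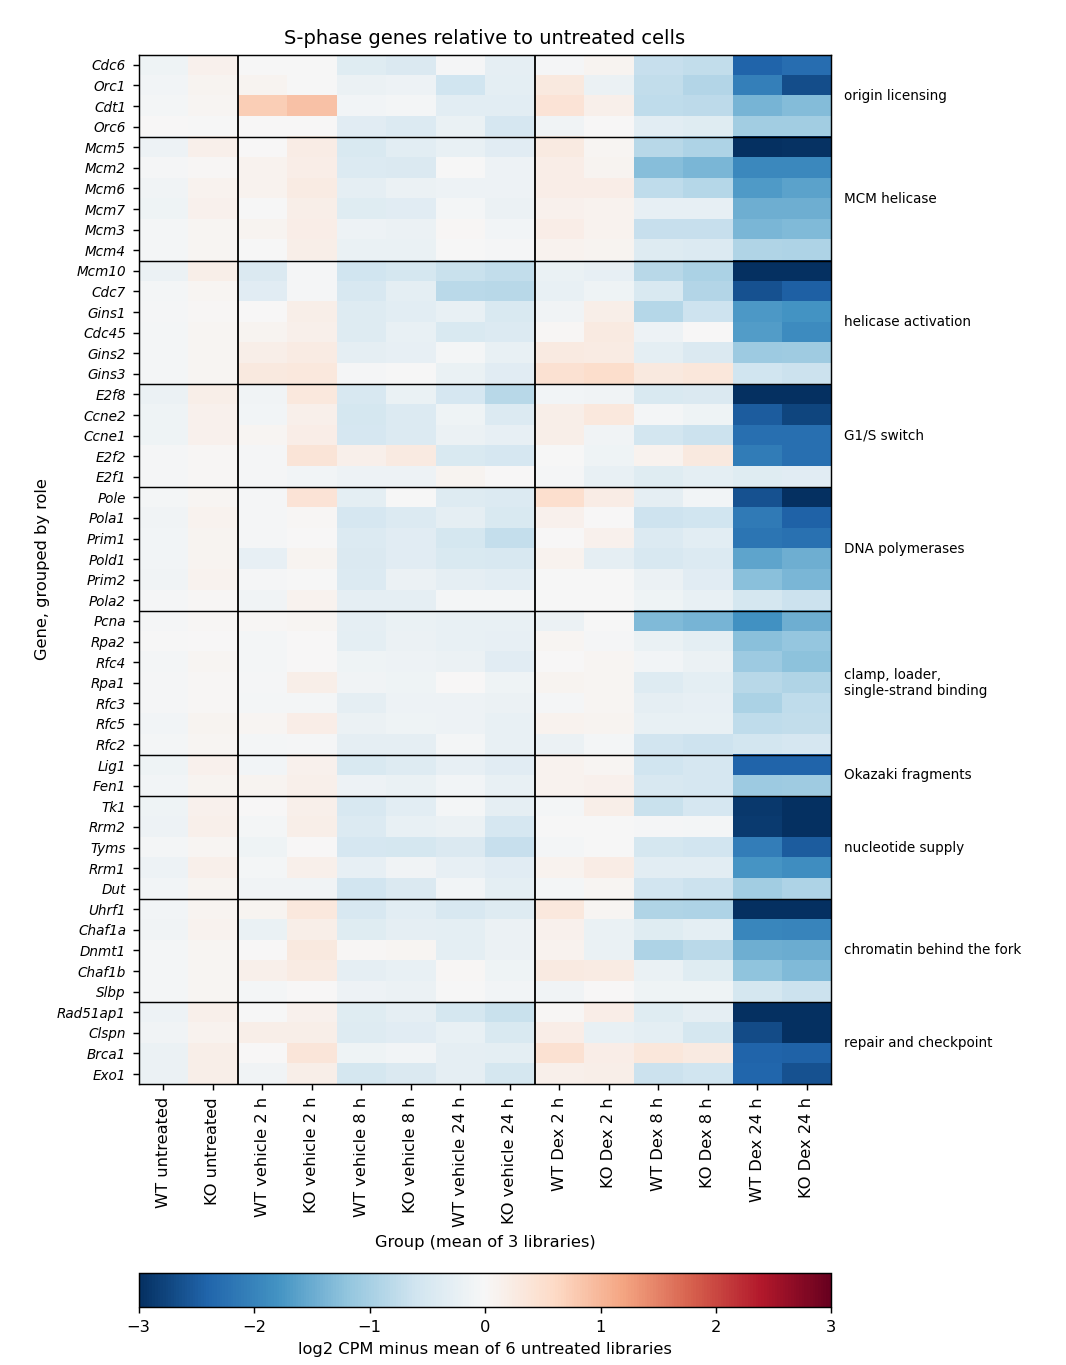
Mean log2 CPM of each group minus the mean of the 6 untreated libraries (colour, with values under -3 shown as -3) for the 50 genes in rows, grouped by role, and the 14 groups in columns. The Dex 24 h columns have medians of -1.75 in WT and -1.82 in KO, while the vehicle 24 h columns have medians of -0.22 and -0.31.

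The licensing genes had a median of -1.49 at 24 h. Cdc6 fell by 2.14 ± 0.14 on the log2 scale, Orc1 by 1.94 ± 0.18, Cdt1 by 1.03 ± 0.09 and Orc6 by 0.71 ± 0.11. Cdc6 stood at 17.5, 13.73 and 11.0 CPM in WT and 12.4, 9.97 and 13.3 CPM in KO under vehicle, and at 4.53, 2.25 and 1.87 CPM and 2.57, 3.51 and 2.76 CPM under Dex. In this gene the WT Dex replicate 1 was the highest of the Dex libraries, still below every vehicle library.

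The MCM genes had a median of -1.43 and covered a wide range, although their products form a single ring. Mcm5 fell by 2.70 ± 0.13, Mcm2 by 1.86 ± 0.10, Mcm6 by 1.51 ± 0.07, Mcm7 by 1.34 ± 0.09, Mcm3 by 1.32 ± 0.07 and Mcm4 by 0.89 ± 0.07. Mcm5 stood at 55.9, 56.2 and 43.4 CPM in WT and 54.9, 36.4 and 52.8 CPM in KO under vehicle. Under Dex it was at 11.4, 6.23 and 4.76 CPM and 8.19, 6.31 and 9.12 CPM. The ranges of Mcm2 were 34.3 to 51.2 CPM (median 44.4) under vehicle and 10.9 to 13.03 CPM (median 11.9) under Dex. Those of Mcm6 were 145 to 185 CPM (median 174) and 55.9 to 64.7 CPM (median 58.4). None of the 3 genes overlapped between treatments.

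Among the genes that activate the helicase (median -1.41), Mcm10, which helps the loaded helicase to begin unwinding, fell by 2.83 ± 0.16 and Cdc7, the kinase that phosphorylates MCM, by 1.73 ± 0.15. Mcm10 ran from 10.9 to 18.3 CPM (median 15.4) under vehicle and from 1.27 to 4.34 CPM (median 1.86) under Dex. Gins1, Cdc45 and Gins2 were lower by 1.45 ± 0.17, 1.37 ± 0.13 and 0.95 ± 0.06. Gins3 had the smallest fall of all 50 genes, at -0.37 ± 0.08 (adjusted p = 0.000242, edgeR quasi-likelihood with Benjamini-Hochberg adjustment). It stood at 7.09, 7.27 and 7.67 CPM in WT and 5.69, 7.14 and 7.24 CPM in KO under vehicle, and at 5.001, 5.81 and 5.70 CPM and 4.77, 5.82 and 5.39 CPM under Dex.

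The genes of the G1/S switch spanned nearly the whole range (median -2.04). E2f8, a repressor among the E2F factors that is itself made at G1/S, fell by 2.89 ± 0.20, Ccne2 by 2.33 ± 0.15, Ccne1 by 2.04 ± 0.11 and E2f2 by 1.69 ± 0.13. E2f1, an activator, fell by 0.41 ± 0.04 only. E2f1 stood at 43.4, 42.7 and 43.8 CPM in WT and 41.2, 41.0 and 41.5 CPM in KO under vehicle, and at 33.2, 31.8 and 30.03 CPM and 32.5, 32.9 and 30.9 CPM under Dex, so its small fall was larger than the spread of the libraries. E2f8 was scarce under Dex, with 2.88, 0.946 and 0.756 CPM in WT and 1.14, 1.31 and 1.10 CPM in KO, against 6.68 to 13.1 CPM under vehicle. Ccne2 ran from 24.2 to 44.6 CPM (median 36.7) under vehicle and from 5.03 to 10.6 CPM (median 6.95) under Dex, and Ccne1 from 12.1 to 16.6 CPM (median 13.9) and from 2.80 to 4.18 CPM (median 3.19). E2f2 ran from 8.06 to 10.6 CPM (median 9.04) and from 2.28 to 3.32 CPM (median 2.84). No gene of this role overlapped between treatments.

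At the fork itself the polymerase and primase genes had a median of -1.31, from Pole, the leading-strand polymerase (-2.33 ± 0.19), to Pola2 (-0.53 ± 0.06). The clamp, loader and single-strand binding genes had the smallest median of any role, -0.80. Within it Pcna fell by 1.43 ± 0.10 and Rfc2 by 0.38 ± 0.05. Pcna stood at 294, 328 and 211 CPM in WT and 308, 217 and 298 CPM in KO under vehicle, and at 103, 96.99 and 74.3 CPM and 108, 124 and 111 CPM under Dex. Rfc2 ran from 58.9 to 69.9 CPM (median 63.4) under vehicle and from 47.5 to 51.1 CPM (median 48.8) under Dex, also without overlap. Lig1, which seals Okazaki fragments, fell by 2.10 ± 0.10 and Fen1 by 0.91 ± 0.06.

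Nucleotide supply had a median of -1.69. Tk1, thymidine kinase, fell by 2.77 ± 0.18, Rrm2 by 2.68 ± 0.15, Tyms, thymidylate synthase, by 1.69 ± 0.13, Rrm1 by 1.52 ± 0.09 and Dut, which removes dUTP, by 0.78 ± 0.11. Rrm2 stood at 108, 78.1 and 59.7 CPM in WT and 65.0, 55.6 and 71.7 CPM in KO under vehicle. Under Dex it was at 19.3, 12.2 and 7.96 CPM and 7.38, 13.4 and 8.33 CPM, the highest again in WT replicate 1. Tyms ran from 10.9 to 18.7 CPM (median 15.3) under vehicle and from 3.59 to 7.70 CPM (median 4.11) under Dex. At 8 h Rrm2 had been at 0.27 ± 0.14 and was not called (adjusted p = 0.103, edgeR quasi-likelihood with Benjamini-Hochberg adjustment).

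The largest fall of all was that of Uhrf1, on chromosome 17 (56303321 to 56323486, plus strand, protein-coding). It stood at 28.7, 30.2 and 21.0 CPM in WT and 32.8, 20.8 and 31.8 CPM in KO under vehicle, and at 6.53, 3.26 and 2.31 CPM and 2.61, 2.50 and 2.24 CPM under Dex. The highest Dex library was well below the lowest vehicle library. The level was 8.69-fold lower, a log2 fold change of -3.12 ± 0.18 (adjusted p = 3.10e-16, edgeR quasi-likelihood with Benjamini-Hochberg adjustment). Chaf1a and Chaf1b, subunits of the assembly factor that places histones on new DNA, fell by 1.73 ± 0.11 and 1.22 ± 0.09, and Slbp by 0.55 ± 0.06, with 80.3 to 100.6 CPM (median 92.01) under vehicle and 56.3 to 67.9 CPM (median 63.5) under Dex. The 4 repair and checkpoint genes had the largest median of any role (-2.30): Rad51ap1 fell by 2.55 ± 0.20, Clspn, an adaptor of the checkpoint kinase at the fork, by 2.52 ± 0.21, Brca1 by 2.08 ± 0.15 and Exo1 by 2.06 ± 0.16.

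**Figure D3:**
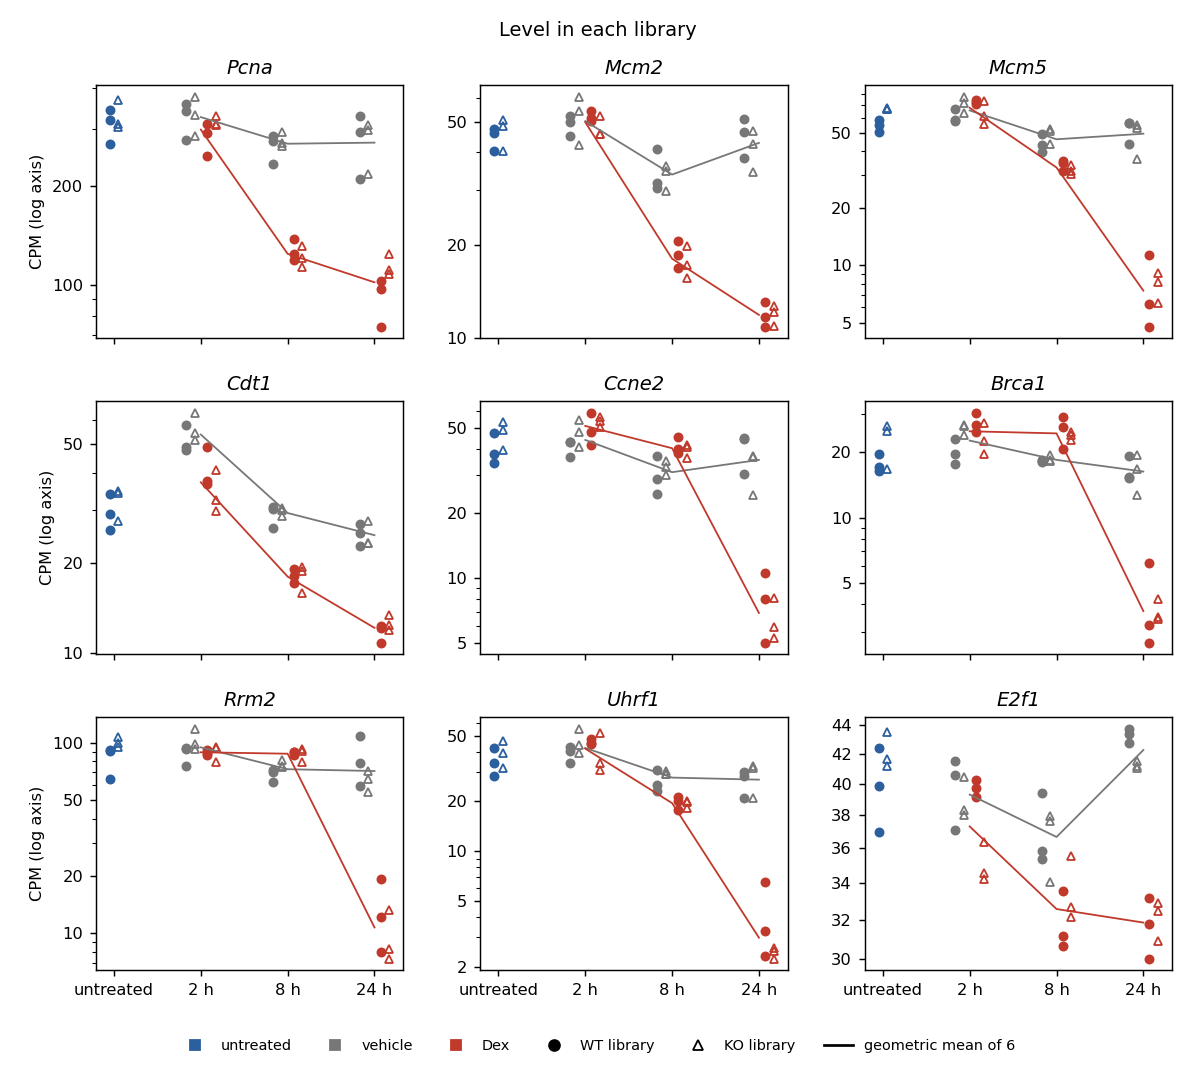
Level of 9 of the genes (y axis, CPM on a log axis that differs between panels) in every library over time (x axis), with filled circles for WT, open triangles for KO and lines through the geometric mean of the 6 vehicle or 6 Dex libraries. Pcna and Mcm2 had fallen by 8 h of Dex, whereas Rrm2, Ccne2 and Brca1 lay low at 24 h and not at 8 h.

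Whether the effect grew between 8 and 24 h was tested as the difference of the Dex effects. It was lower at 24 h for 46 genes and higher for 0, where 16.0% of all genes were called lower, and the median difference was -1.25 (-0.01 over all genes). The 4 not called were Pcna (-0.31 ± 0.14), Cdt1 (-0.33 ± 0.13), Dnmt1 (-0.32 ± 0.17) and Rfc2 (-0.04 ± 0.06). In these 4 genes at least 50% of the 24 h fall, on the log2 scale, was reached by 8 h. Of these, Cdt1 was called without replicate 1 of WT after 24 h of vehicle or of KO after 8 h of Dex, and Pcna without replicate 3 of WT or replicate 2 of KO after 24 h of vehicle. Between 2 and 8 h the effect fell for 10 genes (14.1% of all genes were called lower), namely Pcna, Mcm2, Dnmt1, Orc1, Mcm6, Mcm5, Mcm3, Fen1, Rfc2 and Rpa1. The largest differences between 8 and 24 h were those of Rrm2 (-2.95 ± 0.21), E2f8 (-2.79 ± 0.25) and Ccne2 (-2.69 ± 0.20). For the 30 genes not called at 8 h and the 3 that were higher, the fall at 24 h was the first one called.

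**Figure D4:**
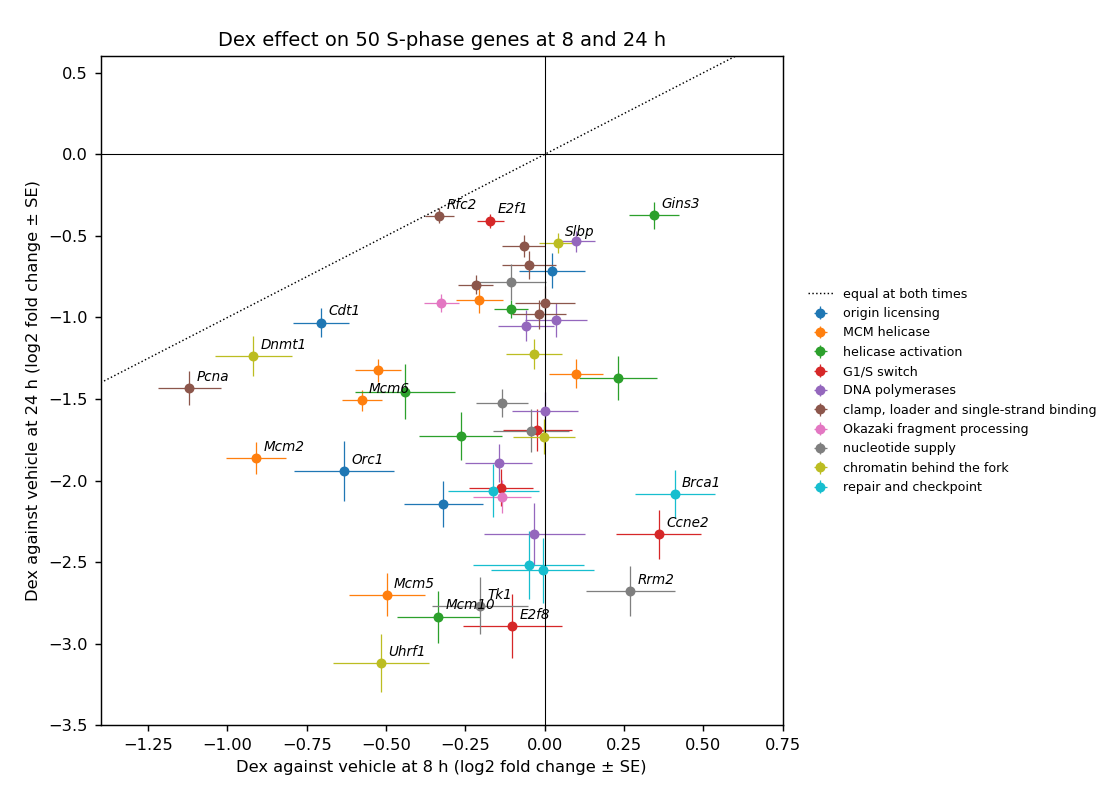
Log2 fold change of Dex against vehicle at 8 h (x axis) and 24 h (y axis) for the 50 genes, each point ± SE over 6 Dex and 6 vehicle libraries and coloured by role, with a dotted line where both would be equal. Points spread from -1.12 to 0.41 at 8 h and all lie between -3.12 and -0.37 at 24 h.

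In both genotypes all 50 genes were lower after 24 h of Dex when each was compared with its own vehicle libraries, with 21.0% of all genes called lower in WT and 20.1% in KO. The medians were -1.54 in WT and -1.47 in KO. Over the 50 genes the effects in WT and KO had a Pearson correlation of 0.949 at 24 h, 0.915 at 8 h and 0.0335 at 2 h, a description across genes, which are not independent replicates. At 2 h, where few genes were called, the effect in KO was above that in WT for 13 of the 50, with a median difference of -0.17. An interaction term, the Dex effect in KO minus that in WT, was called for 0 genes of the table at 2, 8 or 24 h, so 0% of all genes and 0 of the 50, by edgeR quasi-likelihood, and DESeq2 also called 0. At an unadjusted p under 0.05 stood 8, 2 and 4 of the 50 genes and 986, 133 and 564 of all genes. The median SE of this difference for a gene at 24 h was 0.21. The lowest difference at 24 h was that of Orc1, -0.90 ± 0.37 (adjusted p = 0.89, edgeR quasi-likelihood with Benjamini-Hochberg adjustment), followed by Uhrf1 at -0.82 ± 0.36. At 2 h the lowest were Pold1 (-0.69 ± 0.18) and Chaf1a (-0.68 ± 0.19), and these 2 genes were called without KO Dex 2 h replicate 3.

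**Figure D5:**
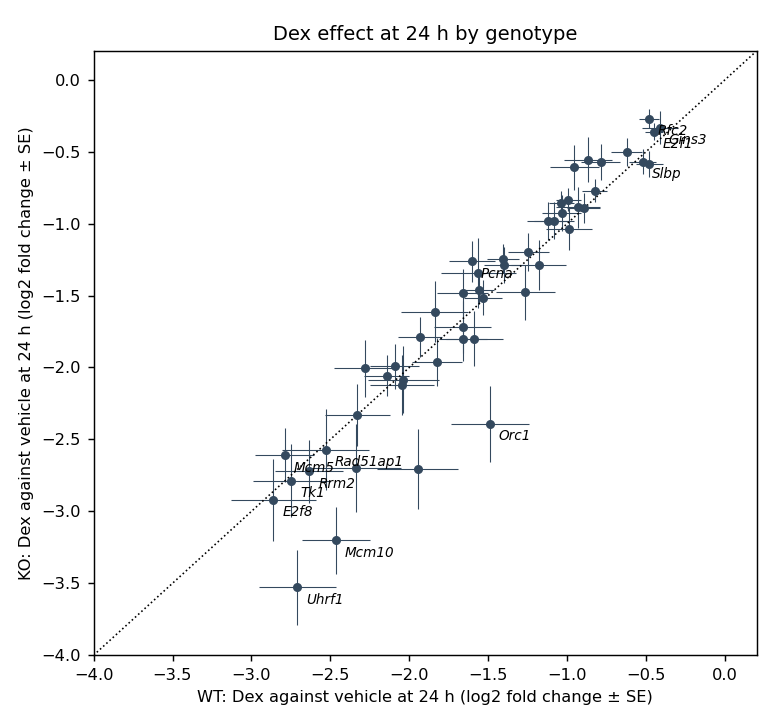
Log2 fold change of Dex against vehicle at 24 h in WT (x axis) and KO (y axis) for the 50 genes, each ± SE over 3 Dex and 3 vehicle libraries, with a dotted line of equality. The points follow the line, and Orc1 and Uhrf1 lie lowest against it in KO.

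Without Dex, KO against WT averaged over untreated and vehicle cells was called for 0 of the 50 genes, where 0.224% of all genes were called by edgeR quasi-likelihood, with 0 by DESeq2 and 4 at an unadjusted p under 0.05. Of all 11160 genes 933 stood at that unadjusted p. The largest difference among the 50 was 0.20 on the log2 scale, and the median 0.07. Within single conditions 0 of the 50 genes were called too, where 0.00896% of all genes were called after 2 and 8 h of vehicle, 0.0448% after 24 h of Dex and 0% in the other 4 conditions. At an unadjusted p under 0.05 stood 2 of the 50 genes in untreated cells, 6, 0 and 3 after 2, 8 and 24 h of vehicle, and 5, 1 and 7 after 2, 8 and 24 h of Dex. Of all 11160 genes the counts were 343 in untreated cells, 495, 218 and 664 with vehicle, and 947, 177 and 851 with Dex. DESeq2 called 0 of the 50 in each condition, although after 2 h of Dex it gave an adjusted p for 1 of the 50 only. The medians were 0.16 in untreated cells, 0.14, 0.07 and -0.11 after 2, 8 and 24 h of vehicle, and -0.01, -0.02 and -0.05 after 2, 8 and 24 h of Dex.

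The vehicle libraries themselves moved away from the untreated cells. The untreated cells are labelled as the baseline, so the vehicle libraries differ from them in time in culture as well. Vehicle and time cannot be told apart in these comparisons. These 3 comparisons share the untreated libraries, and each shares its vehicle libraries with the Dex comparison of the same time. After 2 h of vehicle 3 genes were higher and 0 lower (7.03% of all genes were called higher): Cdt1 (0.80 ± 0.09), Gins3 (0.30 ± 0.08) and Gins2 (0.21 ± 0.05). After 8 h 26 genes were lower and 0 higher (9.66% of all genes were called lower), with a median of -0.29 against -0.00 over all genes. After 24 h 21 were lower and 0 higher (15.4% of all genes), with a median of -0.26. Within WT alone 2 genes were lower at 8 h (4.24% of all genes were called lower) and 2 at 24 h (7.81%), with medians of -0.25 and -0.09. Within KO alone 16 were lower at 8 h (4.65% of all genes) and 25 at 24 h (9.98%), with medians of -0.32 and -0.39. The KO vehicle libraries of 24 h include replicate 2, lowest over the 50 genes (4.24) and within the WT range of Ms4a4a. Those of WT include replicate 3, the next lowest (4.32). Counts within a genotype were not computed without single libraries. The difference itself, the vehicle effect in KO minus that in WT, was called for 0 of the 50 genes and 0% of all genes at 2, 8 and 24 h by edgeR quasi-likelihood and for 0 by DESeq2. At an unadjusted p under 0.05 stood 0, 0 and 11 of the 50, and 217, 133 and 297 of all 11160 genes. The median difference over the 50 was -0.03, -0.12 and -0.27. What follows is again vehicle against untreated, averaged over the genotypes. The lowest at 24 h were Cdc7 (-0.80 ± 0.13), Mcm10 (-0.69 ± 0.13), E2f8 (-0.65 ± 0.16) and Prim1, the catalytic primase subunit (-0.60 ± 0.11). Lower at both 8 and 24 h of vehicle were 12 genes, among them Pola1, Prim1, Prim2 and Pold1 of the polymerases, Lig1, Fen1 and Tyms. In the 12 fits without 1 library, Pola1, Pold1 and Tyms kept both calls throughout. Prim2 kept its call in 5 fits at 8 h and 7 at 24 h, and Fen1 in 8 at each time. Prim1 kept it in 11 at 8 h and Lig1 in 10 at 24 h. Of the MCM genes 4 of 6 were lower at 8 h and 0 of 6 at 24 h. The 8 h count was 17 without WT untreated replicate 2 or without WT vehicle replicate 3, and 15 without KO vehicle replicate 3. The 24 h count was 13 without WT vehicle replicate 3 or without KO vehicle replicate 2, 16 without WT Dex replicate 1 and KO vehicle replicate 2, and 12 without these and WT vehicle replicate 3.

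Other genes of the same processes were read from fixed lists. Beside these counts stand the shares of all genes, of which 24.7% were called lower and 27.5% higher at 8 h of Dex, and 26.8% lower and 26.8% higher at 24 h. Of 38 further replication genes, 25 were lower and 3 higher at 24 h of Dex (median -0.37), against 8 lower and 7 higher at 8 h, neither above the share of all genes. Those with the lowest p at 24 h were the chromatin remodeller Hells (-1.96 ± 0.11), the histone chaperone Asf1b (-2.20 ± 0.14), Cdca7 (-2.69 ± 0.18) and the alternative clamp loader subunit Chtf18 (-2.02 ± 0.15). Of 27 checkpoint and recombination genes 21 were lower and 1 higher at 24 h (median -0.51), among them Rad54l (-1.24 ± 0.07), Rad18 (-0.99 ± 0.07) and Fanci (-2.66 ± 0.20). The 1 that was higher was Wee1, an inhibitory kinase of CDK1, at 0.47 ± 0.07 after 1.87 ± 0.07 at 8 h.

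Of 22 further genes of nucleotide supply 13 were lower and 3 higher at 8 h, where 24.7% of all genes were called lower and 27.5% higher. At 24 h 14 were lower and 4 higher, where 26.8% of all genes were called in each direction. Mthfd2, of mitochondrial folate metabolism, was lower at 24 h (-2.54 ± 0.15), as was deoxycytidine kinase, Dck (-1.15 ± 0.09). Samhd1, which degrades deoxynucleotides, was higher (1.29 ± 0.08). Of 9 replication-dependent histone genes 4 were lower and 1 higher at 24 h, beside the same 26.8% of all genes in each direction. Some of these genes, though not all, have near-identical copies, between which reads may be split.

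Of 27 G1/S regulators 8 were higher and 8 lower at 8 h of Dex, near the 27.5 and 24.7% of all genes. At 24 h 14 were lower and 5 higher, where 26.8% of all genes were called in each direction. The D cyclins differed at 8 h: Ccnd3 was higher (1.011 ± 0.07), whereas Ccnd1 (-1.15 ± 0.21) and Ccnd2 (-0.66 ± 0.19) were lower, as was Myc, a growth-promoting transcription factor (-1.31 ± 0.18). The CDK inhibitors differed too. Cdkn1b, which encodes p27, was higher at 8 h (0.92 ± 0.16) and 24 h (0.54 ± 0.16). Cdkn1a, which encodes p21, was higher at 8 h (0.32 ± 0.08) and not called at 24 h (0.00 ± 0.08), and Cdkn1c, which encodes p57, was lower at both (-0.69 ± 0.14 and -1.89 ± 0.16). At 24 h the E2F partner pocket protein gene Rbl1 (-1.35 ± 0.07), the S-phase cyclin Ccna2 (-2.26 ± 0.15), Mybl2 (-2.45 ± 0.17) and Cdk6 (-1.14 ± 0.08) were lower.

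The mitosis genes, which act after S phase, were mostly not called at 8 h of Dex and were low at 24 h. At 8 h 3 of 38 were higher and 1 lower (5 and 5 when the compared libraries were fitted alone), with a median of 0.01, where 27.5% of all genes were called higher and 24.7% lower. At 24 h 37 were lower and 0 higher, with a median of -1.90, where 26.8% of all genes were called lower. Top2a, the topoisomerase of chromosome segregation, was at 0.02 on the log2 scale at 8 h, not called, and at -2.33 ± 0.14 at 24 h. Mki67, a marker of cycling cells, was higher at 8 h (0.32 ± 0.11) and lower at 24 h (-0.98 ± 0.12). Ndc80 (-2.34 ± 0.13), Smc2 (-1.23 ± 0.07), Cenpe (-1.71 ± 0.10) and Prc1 (-2.16 ± 0.12) had the lowest p at 24 h.

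Across the 14 group means, the genes outside the list whose pattern was most like the mean of the 50 were Pkmyt1 (Pearson r = 0.995), Dtl (0.995), Fignl1 (0.995), Cenph (0.994) and Tcf19 (0.990). Among the 50, the ones most like their own mean were Lig1 (0.997), Exo1 (0.997) and Pola1 (0.997), and the least alike were E2f1 (0.683), Rfc2 (0.710) and Gins3 (0.788). The group means share libraries, and these values describe likeness in these groups only.

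Some markers of other cell types also differed between Dex and vehicle, more of them at 24 h than at 8 h. For all marker calls, 27.5% of all genes were called higher and 24.7% lower at 8 h, and 26.8% each way at 24 h. Of the 9 macrophage markers 3 were higher and 2 lower at 8 h of Dex, and 3 higher and 3 lower at 24 h. The 5 fibroblast and stromal markers in the table, of 8 listed, summed to 12.5 to 67.6 CPM in the Dex 24 h libraries and 6.81 to 23.2 CPM in the vehicle 24 h libraries, with 5 of 5 called higher and none at 0. The 4 haematopoietic progenitor markers in the table, of 6 listed, summed to 83.1 to 115 CPM under Dex and 26.4 to 56.2 CPM under vehicle at 24 h, with 2 called higher and 2 lower and none at 0. At 8 h this sum was 194 to 291 CPM under Dex and 107 to 154 CPM under vehicle, with 1 called higher and 1 lower, and in untreated cells it was 258 to 425 CPM.

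Some other marker sums were lower under Dex. Their calls stand beside the same shares of all genes. Of 8 T and NK cell markers only Cd4 was in the table, at 1.68 to 6.23 CPM under Dex and 7.74 to 14.3 CPM under vehicle at 24 h (-1.74 ± 0.23, called lower). The 2 endothelial markers in the table, of 5 listed, summed to 4.34 to 6.39 CPM under Dex and 12.3 to 17.6 CPM under vehicle at 8 h, and to 5.48 to 7.05 and 9.23 to 14.7 CPM at 24 h, with 1 called lower at each time. Of the 5 neutrophil, 2 B cell and 1 erythroid markers measured, 1 of each list was called lower at 24 h. The 3 dendritic cell markers went the other way in sum, with 4.62 to 6.26 CPM under Dex and 0.943 to 2.20 CPM under vehicle at 8 h. At 24 h they summed to 2.17 to 3.94 and 0.742 to 1.85 CPM. At each time 1 of the 3 was called higher and 1 lower, and 1 was at 0 in KO after 24 h of Dex. The part of other cells in the S-phase results was not tested.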

How the data were processed

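The authors deposited a table of expected counts (estimated reads per gene, not normalized) for 11160 genes in 42 libraries. The submitters' processing notes name fastp, HISAT2, Salmon and GRCm38, with no version or order; the annotation, the filter and strand use are not stated there. Counts were rounded, scaled by TMM (factors 0.950 to 1.04) and fitted with edgeR 4.0.16 (R 4.3.3, quasi-likelihood F test) as 14 group means over all 42 libraries. filterByExpr removed 0 genes. P-values were adjusted over all genes by Benjamini-Hochberg and called at 0.05. On simulated counts of 11160 genes for Dex at 24 h, drawn with the spread of the fit, 92.2% of the 64 genes changed 1.5-fold were recovered. Of all calls there 6.31% were false. Far fewer genes were changed there than the 53.6% called in the data, so these shares do not measure the error of the real comparison. Every listed gene could be named. Levels by library or range were given for 14 set genes and for the 3 highest and 3 lowest log2 fold changes at 8 and 24 h of Dex; of each further list the 4 lowest p and a few set genes were named, except that some of these are not reported here. The genes and lists were chosen with earlier results of these data known. Positions are from GENCODE M21 (GRCm38). Replicate numbers were not taken as pairs where both genotypes were averaged, since the lowest correlation of same-numbered libraries was at most -0.03 there. No 2 replicates agreed within counting noise (lowest chi-square per degree of freedom 7.13).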

Additional observations from a re-analysis of the deposited data

Results flagged for a closer look

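The Dex effect was called higher at 8 h and lower at 24 h for 3 genes. Tested as a difference of effects, the change was -2.69 for Ccne2, -2.49 for Brca1 and -0.72 for Gins3 on the log2 scale (edgeR quasi-likelihood). The median difference over the 50 genes was -1.25. The 8 h call of Ccne2 was kept in 8 of 12 fits without 1 library. For 46 of the 50 genes the Dex effect was lower at 24 h than at 8 h, where 16.0% of all genes were called lower. For 10 it was lower at 8 h than at 2 h, where 14.1% of all genes were. The cause of these differences was not tested.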

How the results depend on the processing

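Each count was recomputed with DESeq2 1.42.0, with median-ratio size factors, without a filter, on genes averaging 5 CPM or more, with the replicate number as a block, on the compared libraries alone and without each library in turn; leaving out WT Dex replicate 1 and KO vehicle replicate 2 of 24 h, or these and WT vehicle replicate 3, was added after seeing the data. No result reversed. For Dex at 24 h every gene tested was called in every setting, 48 of 48 on genes averaging 5 CPM or more, where Gins1 and Orc1 were not tested, and 50 of 50 in the others. Without all 3 libraries the count for vehicle at 24 h was 12. The replicate block gave 2 genes for Dex at 2 h (1 without it); in the other comparisons it left every count within 1.5 times. Where every same-numbered pair correlated above 0.1 within a genotype (Dex at 8 and 24 h in WT, Dex at 2 and 8 h in KO, vehicle in KO, KO against WT after vehicle or 2 h of Dex), the block changed no count of the 50 genes by over 1.5 times. Leaving out 1 library gave 1 to 2 genes for Dex at 2 h, 16 to 21 at 8 h, 15 to 32 for vehicle at 8 h, 13 to 26 for vehicle at 24 h and 0 to 2 for the interaction at 2 h; the cause was not tested. The lowest count of an S-phase gene in any library was 13, and no limit set by depth was tested beyond the 5 CPM filter.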
